A study of Oryza sativa with 20 samples.

Results

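hox14, Hox13 and Hox21 are 3 rice genes of the homeodomain-leucine zipper (HD-Zip) family, class I. They were taken by gene symbol or RefSeq synonym, with case ignored, and each was matched by 1 probe set, so the set is 3 genes of the 17905 that probe sets with exactly 1 listed gene represent. Their RefSeq gene names are LOC4343726 for hox14, LOC4331890 for Hox13 and LOC4331774 for Hox21. The name of the Hox21 probe set ends in _x_at, which in Affymetrix naming means that some of its probes can also match other transcripts. That of the Hox13 probe set ends in _a_at, which means that it reads more than 1 transcript form of its gene.

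RNA was measured in the stem bases of rice seedlings 8 days old, of the cultivar Taichung65, all of which carried the crl1 (crown rootless 1) mutation. The CRL1 lines were 3 independent transformation events with the CRL1 coding sequence in the dexamethasone-inducible vector pINDEX2, single-locus homozygous lines that had been picked because they expressed CRL1 and made crown roots after dexamethasone. They received 10 µM dexamethasone or mock treatment (ethanol) and were sampled 4 h and 8 h later, which gave 3 arrays in each of 4 groups. The control lines received the same treatments at the same times, with 2 arrays in each of 4 groups: control line 1 was the untransformed mutant and control line 2 was 1 line with the empty vector. Each array held RNA of 20 pooled stem bases of 1 line. A transgene switched on by dexamethasone need not be confined to the cells in which CRL1 normally acts. No probe set was matched to CRL1, so its induction was not checked on these arrays.

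HD-Zip proteins occur in plants and combine a DNA-binding homeodomain with a leucine zipper through which they pair. Class I members are best known for growth control and for responses to water deficit and abscisic acid, and hox14 is known in rice for a role in panicle development together with its relative hox12. CRL1 is a LOB-domain transcription factor that acts downstream of auxin response factors and is required for crown root initiation at the stem base.

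All values are MAS5 signals, scaled to the same trimmed mean on every array, where the median probe set of an array lay between 10.1 and 15.5. Each array's median rank correlation with the others was 0.925 to 0.952 on the 4 arrays of control line 1 and 0.963 to 0.971 on those of control line 2. It was 0.934 to 0.955 on the CRL1 line arrays taken 8 h after dexamethasone, and 0.965 to 0.968 on the other CRL1 line arrays. OSH1, a KNOX gene of the shoot meristem, had signals of 439.6 to 1018 and stood above the array median on all 20 arrays, as the stem base label asks. Changes are on the log2(signal + 1.7) scale with the standard error (SE) of a limma fit over 32836 probe sets. That scale understates changes of dim transcripts. The SE pools the spread within groups over all 20 arrays, and arrays of a line are not paired unless a block is named. Nothing but the line number says that the arrays of a group are separate samples, so the errors measure the spread between lines.

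hox14 and Hox21 were chosen by their measured rise and fall at 8 h in the CRL1 lines, which earlier results of these data had shown. It is not recorded which values Hox13 was chosen by. The values of all 3 genes in the CRL1 lines at 8 h, those of Hox13 in the CRL1 lines at 4 h, and contrasts built on them are therefore given as a description, with no test.

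Hox13 was high after dexamethasone at both times, hox14 was high mainly at 8 h, and Hox21 was low mainly at 8 h. At 4 h the CRL1 lines had Hox13 signals of 510.4, 575.3 and 655.1 after dexamethasone (lines 1, 2 and 3), against 195.7, 231.5 and 187.2 after mock treatment. At 8 h they were 589.7, 650.3 and 1110 after dexamethasone, against 226.2, 199.6 and 239.3 after mock treatment. At both times the lowest dexamethasone array lay above the highest mock array. How many of all probe sets separate in this way was not counted, for Hox13 or for the genes below. The log2 change was 1.49 ± 0.21 at 4 h and 1.76 ± 0.21 at 8 h (SE, 3 lines). In all, 223 of 32836 probe sets rose at least that far at 4 h and 389 did at 8 h. In such bulk tissue, more cells that express a gene and more of its RNA per cell cannot be told apart.

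hox14 was dim without CRL1 induction. At 4 h its signals were 31.4, 53.1 and 7.4 after dexamethasone in CRL1 lines 1, 2 and 3, against 2.1, 9.5 and 9.6 after mock treatment. Lines 1 and 2 were above every mock array, and line 3 lay within the mock range, so the groups overlapped. At 8 h the signals were 233.5, 661 and 110.2 after dexamethasone, against 10.5, 9.6 and 6.1 after mock treatment, and the groups did not overlap. All 6 mock arrays of the CRL1 lines were under their array's median, while 2 of 3 dexamethasone arrays at 4 h and 3 of 3 at 8 h were above it.

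The log2 change of hox14 was 1.7 ± 0.82 at 4 h (SE, 3 lines), higher in 2 of 3 lines and not called (adjusted p = 0.824, limma with Benjamini-Hochberg adjustment, unadjusted p = 0.054, 95% interval -0.03 to 3.43). At 8 h it was 4.66 ± 0.82, and 23 of 32836 probe sets rose at least that far. Because the mock signals were so low, the size hung on the offset: with no offset the 8 h change was 4.92, and with an offset at the median signal it was 3.73. hox14 stood above the array median on 7 arrays, of which 2 lay outside the CRL1 lines after dexamethasone, so it passed the filter on dim probe sets only through those groups. The 3 arrays at 8 h met the filter by themselves, without those at 4 h, and with no filter the adjusted p at 4 h was 0.94.

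Hox21 went the other way. At 4 h its signals were 197, 137.7 and 224.9 after dexamethasone in CRL1 lines 1, 2 and 3, against 219.3, 306.2 and 336.8 after mock treatment. The dexamethasone array was the lower one in all 3 lines, but line 3 after dexamethasone was above line 1 after mock treatment, so the groups overlapped. At 8 h the signals were 126.1, 53.3 and 74.2 after dexamethasone, against 268.7, 319.6 and 271.8 after mock treatment. There the highest dexamethasone array was under the lowest mock array by more than 100 units. The log2 change was -0.63 ± 0.25 at 4 h, lower in 3 of 3 lines and not called (adjusted p = 0.63, limma, unadjusted p = 0.0255, 95% interval -1.16 to -0.09). At 8 h it was -1.83 ± 0.25, and 76 of 32836 probe sets fell at least that far. Hox21 stayed above the median of every array, its lowest signal of 53.3 included, so its fall was measured on both sides.

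**Figure D1:**
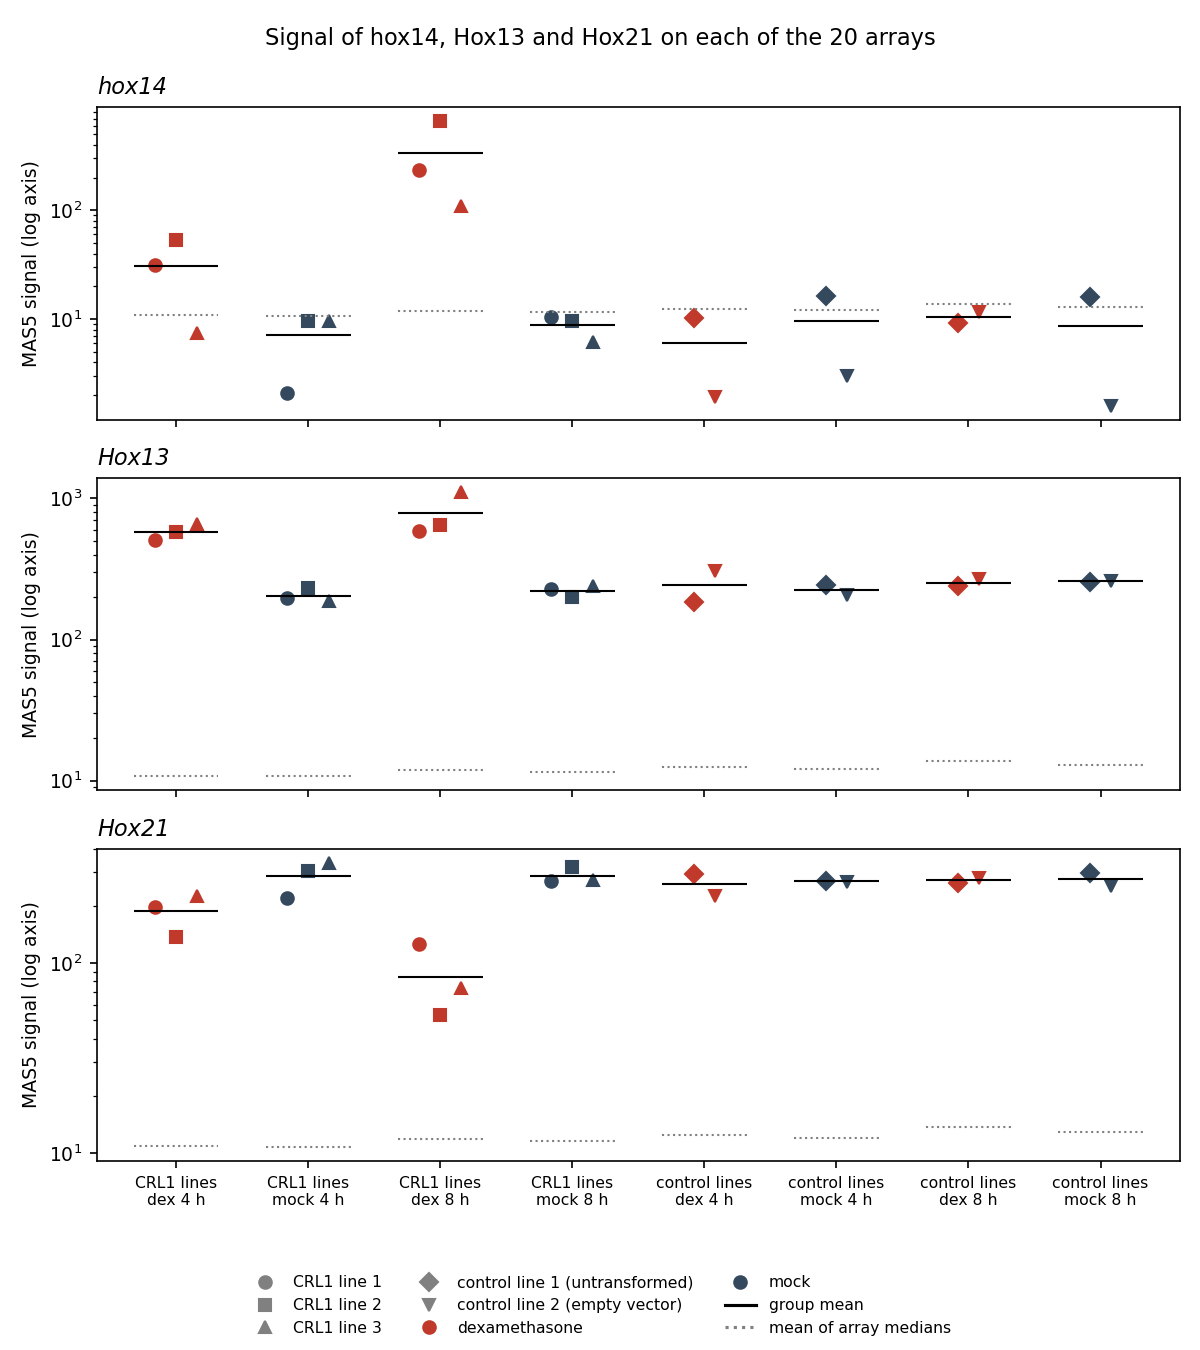
MAS5 signal (log axis) of hox14, Hox13 and Hox21 on each of the 20 arrays, by group, with dexamethasone in red, mock treatment in dark blue and a symbol for each line; solid bars are group means and dotted bars the mean of the array medians. In the CRL1 lines at 8 h hox14 lay at 110.2 to 661 after dexamethasone and at 6.1 to 10.5 after mock treatment, while Hox21 lay at 53.3 to 126.1 after dexamethasone and at 268.7 to 319.6 after mock treatment.

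Over all probe sets limma called 136 higher at 4 h, which is 0.414% of those tested, and 7 lower, which is 0.0213%. At 4 h that is 0.435% in either direction. At 8 h limma called 1140 higher (3.47%) and 955 lower (2.91%), 6.38% in all. Leaving out a line gave 12 to 195 higher and 0 to 29 lower at 4 h, fewest without CRL1 line 1, and 348 to 1338 higher and 144 to 1398 lower at 8 h, fewest without CRL1 line 2. Blocked by line, 296 were higher (0.901%) and 58 lower (0.177%) at 4 h, and 1737 higher (5.29%) and 1906 lower (5.8%) at 8 h. These shares stand as the background for the 3 genes, and since the 8 h contrast chose hox14 and Hox21, nothing is read from it for them.

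The 3 genes, described without a test, varied in how much of the 8 h change was already there at 4 h. hox14 and Hox21 were chosen by their 8 h change, and such a choice favours a large 8 h change beside the 4 h one. For Hox13 the log2 change within CRL1 lines 1, 2 and 3 was 1.38, 1.31 and 1.8 at 4 h and 1.38, 1.7 and 2.21 at 8 h. The changes of Hox13 at the 2 times were thus equal to 2 decimals in line 1, and the 4 h change was 77.1% of the 8 h change in line 2 and 81.5% in line 3. For hox14 the changes within the same lines were 3.12, 2.29 and -0.31 at 4 h and 4.27, 5.87 and 3.84 at 8 h. Line 3 had not moved up at 4 h, and no share is given for hox14, since its mock signals were under the array median and that of line 1 at 4 h was 2.1. For Hox21 they were -0.15, -1.14 and -0.58 at 4 h and -1.08, -2.55 and -1.85 at 8 h, so that 14.2%, 44.9% and 31.3% of the fall was there at 4 h. The 8 h change minus the 4 h change was 0.27 ± 0.3 for Hox13, 2.96 ± 1.16 for hox14 and -1.2 ± 0.36 for Hox21 (SE, lines not paired). For Hox13 that is within 1 SE, and with line as a block its SE was 0.274. Within CRL1 lines 1, 2 and 3 the Hox13 difference was 0.0004, 0.39 and 0.41, so lines 2 and 3 rose further. Of all probe sets, 2 were called for such a difference, both higher (0.00609%), and blocked by line 47 were higher (0.143%) and 11 lower (0.0335%).

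The lines did not keep 1 order across the genes. CRL1 line 2 had the largest change at 8 h of both hox14 and Hox21, while line 3 had the largest change of Hox13 at both times. The line 2 array after dexamethasone at 8 h had the lowest median rank correlation of the CRL1 line arrays. It was 0.934, against 0.955 in line 1 and 0.949 in line 3. Line 1 had the smallest change of Hox13 and of Hox21 at 8 h, and yet the largest change of hox14 at 4 h, where its mock signal of 2.1 was the lowest in the CRL1 lines. Which of these orders would recur was not tested, since each line has 1 array per treatment and time.

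**Figure D2:**
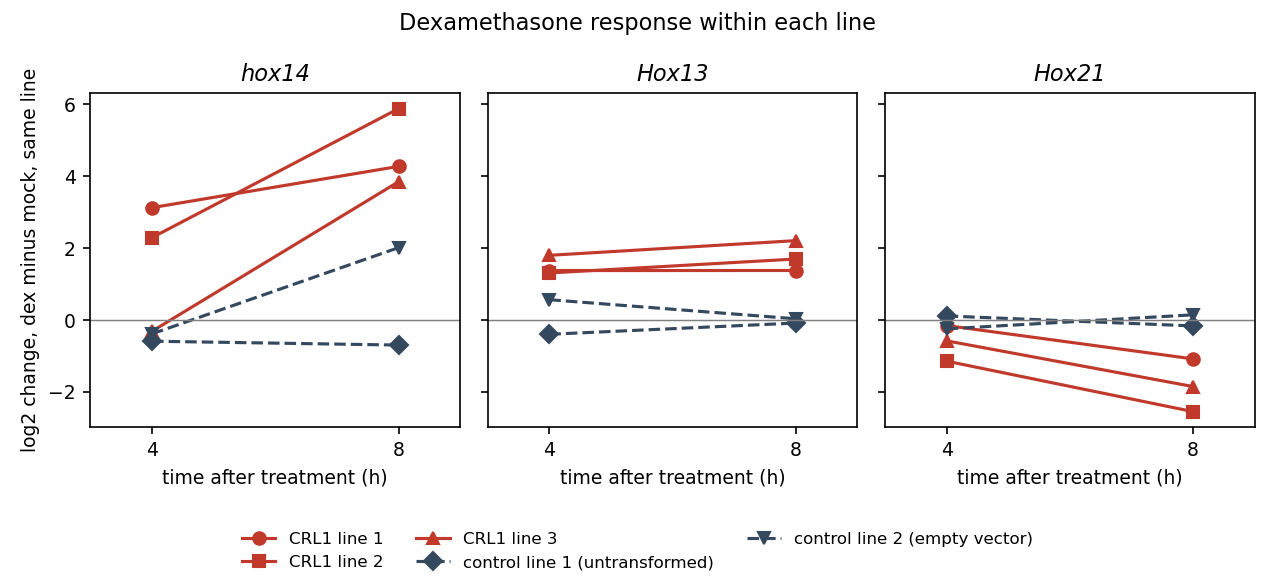
Log2 change (dexamethasone minus mock within a line) at 4 h and at 8 h for hox14, Hox13 and Hox21, with solid red lines for the 3 CRL1 lines and dashed dark lines for the 2 control lines. Hox13 lies between 1.31 and 2.21 in the CRL1 lines, level in line 1 and higher at 8 h in lines 2 and 3. In these lines hox14 climbs to 3.84 to 5.87 at 8 h, and Hox21 goes down to between -1.08 and -2.55.

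The control lines give the response to dexamethasone without the CRL1 transgene. Hox13 had signals of 185.5 and 304.6 after dexamethasone at 4 h in control lines 1 and 2, against 244.8 and 205.4 after mock treatment. At 8 h Hox13 had 240.7 and 266.2 after dexamethasone, against 255.3 and 260 after mock treatment. The control lines moved in opposite directions at both times, and all 8 arrays were under the lowest Hox13 signal after dexamethasone in the CRL1 lines. The log2 change of Hox13 was 0.08 ± 0.26 at 4 h (95% interval -0.47 to 0.64) and -0.03 ± 0.26 at 8 h (-0.58 to 0.53), with an adjusted p of 1.0 at both times (limma, 2 lines).

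Hox21 had no called change in the control lines either. Its signals at 4 h were 292.6 and 225.9 after dexamethasone, against 270.6 and 268.3 after mock treatment. At 8 h Hox21 had 264.8 and 280.2 after dexamethasone, against 297 and 253.4 after mock treatment. Its log2 change was -0.07 ± 0.31 at 4 h (95% interval -0.73 to 0.59) and -0.01 ± 0.31 at 8 h (-0.67 to 0.65), and neither was called (adjusted p = 1.0, limma).

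The hox14 signal was near or under the array median throughout the control lines. At 4 h it was 10.2 and 1.9 after dexamethasone, against 16.2 and 3 after mock treatment. At 8 h it was 9.1 and 11.6 after dexamethasone, against 15.8 and 1.6 after mock treatment. The empty-vector line alone was higher after dexamethasone at 8 h, by 2.01 on the log2 scale from a mock signal of 1.6, while the untransformed line stood at -0.7. The pooled change of hox14 was -0.49 ± 1.0 at 4 h and 0.66 ± 1.0 at 8 h (adjusted p = 1.0 at both times, limma), with 95% intervals of -2.61 to 1.64 and -1.47 to 2.78. These intervals are wide and reach responses of several fold in either direction. Without control line 2 the 8 h value was -0.7 and without control line 1 it was 2.01. No probe set was called in the control lines at either time with all lines in the fit (0%). At an unadjusted p under 0.05 limma found 781 of 32836 at 4 h and 838 of 32836 at 8 h.

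Subtracting the mean control response left the CRL1 lines' changes in the same direction. At 4 h the difference for hox14 was 2.19 ± 1.29 (adjusted p = 1.0, limma, 95% interval -0.55 to 4.93) and for Hox21 -0.56 ± 0.4 (adjusted p = 1.0, -1.41 to 0.29), neither of them called. A difference of this kind was called for 3 probe sets, all higher (0.00914%). For Hox13, described without a test, it was 1.41 ± 0.34 at 4 h and 1.78 ± 0.34 at 8 h. The 4 h value was 0.93 without control line 1 and 1.89 without control line 2, since those lines had moved apart. At 8 h the differences, also without a test, were 4.0 ± 1.29 for hox14 and -1.82 ± 0.4 for Hox21. For hox14 the 8 h difference was 2.65 without control line 1 and 5.36 without control line 2. At that time 187 probe sets were called higher (0.569%) and 46 lower (0.14%), which is 0.71% in all, and leaving out a line gave 54 to 154 higher and 8 to 26 lower. These differences share the CRL1 line arrays with the changes given above.

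Without dexamethasone no difference beyond the spread was found for the 3 genes, either by kind of line or by time. The mock-treated CRL1 lines minus the mock-treated control lines, averaged over both times with line as a random block, gave -0.18 ± 0.19 for Hox13 (adjusted p = 0.78, limma, 95% interval -0.58 to 0.23). The same contrast was 0.06 ± 0.24 for Hox21 (adjusted p = 0.951, -0.44 to 0.57) and 0.1 ± 0.68 for hox14 (adjusted p = 0.975, -1.33 to 1.54). Mock-treated stem bases at 8 h minus 4 h gave 0.16 ± 0.17 for Hox13, 0.02 ± 0.2 for Hox21 and 0.06 ± 0.65 for hox14, with an adjusted p of 1.0 for each (limma). Over all probe sets 1 was called between the kinds of line (0.00305%) and 4 between the times (0.0122%). Without control line 2, which leaves the untransformed mutant as the only control, 1828 were called higher and 2108 lower between the kinds of line. Between the times, leaving out a line gave 0 to 24 higher and 0 to 19 lower.

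No other class I gene was called by limma. Of 14 class I genes on the list, 12 had a probe set and 11 passed the filter, which leaves 8 besides the 3 genes described. Of these 8, none had an unadjusted p under 0.05 at 4 h, while at 8 h 2 did as higher and 2 as lower. Of all probe sets 6.16% did at 4 h and 18.2% at 8 h. Their log2 changes spanned -0.16 to 0.4 at 4 h and -0.49 to 0.8 at 8 h, with medians of 0.03 and -0.31, against -0.02 and -0.04 over all probe sets. hox12, which acts with hox14 in rice panicles, had 101.4 ± 48.6 after dexamethasone at 8 h and 54.8 ± 15.1 after mock treatment (SD, n = 3). Its log2 change of 0.8 ± 0.34 was not called (adjusted p = 0.214, limma), and at 4 h it stood at 0.01 ± 0.34. hox22, known from responses to drought and abscisic acid, stood at 0.09 ± 0.29 at 4 h and -0.43 ± 0.29 at 8 h. hox16 had 3958 ± 546 after dexamethasone at 8 h and 2760 ± 421 after mock treatment (SD, n = 3), a log2 change of 0.52 ± 0.17. That gene was called when lines were blocked (adjusted p = 0.00758), though not otherwise (adjusted p = 0.0862, limma). The same held for hox4, at 0.5 ± 0.38, where the adjusted p was 0.0246 blocked by line and 0.559 unblocked.

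The remaining class I genes gave these 8 h values. hox5 had a log2 change of -0.49 ± 0.2, with signals of 525.6 ± 121 after dexamethasone and 728.9 ± 61.9 after mock treatment (SD, n = 3). hox6 stood at -0.24 ± 0.24, hox8 at -0.43 ± 0.21 and hox20 at -0.38 ± 0.16. None of these 4 was called at 8 h with line as a block or without it.

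Of the other HD-Zip classes, single members changed. Over all 4 classes 41 genes were listed, 34 had a probe set and 31 were tested. Without the 3 class I genes described, 28 remained, of which 1 rose and none fell at 4 h (background 0.414% and 0.0213%), and 3 rose and 3 fell at 8 h (background 3.47% and 2.91%). At an unadjusted p under 0.05 limma found 2 higher and 2 lower at 4 h, and 7 higher and 5 lower at 8 h, against the same 6.16% and 18.2% of all probe sets. The median log2 change of the 28 was 0.03 at 4 h and 0.02 at 8 h. With line as a block 6 rose and 3 fell at 8 h (background 5.29% and 5.8%), the additional ones being hox4, hox16 and the class II gene hox1 (adjusted p = 0.000914 blocked by line, 0.228 unblocked).

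Roc4, a class IV homeobox gene of the epidermis, was the one of the 28 called at both times with lines not blocked and arrays not weighted. It had 92 ± 12.6 after dexamethasone at 4 h and 23.1 ± 3.67 after mock treatment (SD, n = 3), a log2 change of 1.92 ± 0.32 (adjusted p = 0.0102, limma). The call at 4 h was lost without CRL1 line 1 (adjusted p = 0.258) and without line 2 (0.221). At 8 h it had 155.1 ± 48.0 after dexamethasone and 29.2 ± 13.5 after mock treatment, a log2 change of 2.41 ± 0.32 (adjusted p = 0.000211).

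Arabidopsis members of class II act in shade and auxin responses. Of 8 tested class II genes, 1 rose and 2 fell at 8 h (background 3.47% and 2.91%). hox17 rose by 2.29 ± 0.39 (adjusted p = 0.0018, limma), with signals of 41 ± 15.4 after dexamethasone and 7.6 ± 5.74 after mock treatment (SD, n = 3), the mock signal being dim. The name of the hox17 probe set ends in _x_at, as that of Hox21 does. hox28 had signals of 15.2 ± 3.48 after dexamethasone and 41.8 ± 9.05 after mock treatment, and its log2 change was -1.37 ± 0.26 (adjusted p = 0.00443). In the control lines hox28 stood at -0.7 ± 0.32 at the same time, which was not called. hox15 had signals of 119.7 ± 20.7 after dexamethasone and 232.5 ± 2.51 after mock treatment, with a log2 change of -0.96 ± 0.21 (adjusted p = 0.00983). Without CRL1 line 2 the calls of hox17, hox28 and hox15 were lost (adjusted p = 0.0996, 0.0748 and 0.131), and without line 1 that of hox15 (0.0961). At 4 h hox15 stood at -0.77 ± 0.21, called when blocked by line (adjusted p = 0.028, limma) and with array weights (0.0251). With neither it was not called (0.188).

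Class III genes act in vascular development and organ polarity. Of 5 tested, 1 rose and 1 fell at 8 h (background 3.47% and 2.91%). hox10 had signals of 953.5 ± 349 after dexamethasone and 453.5 ± 50.6 after mock treatment (SD, n = 3), a log2 change of 1.01 ± 0.19 (adjusted p = 0.00451, limma). Its second probe set did not follow, at -0.26 ± 0.43 (adjusted p = 0.837). hox33 had signals of 224.8 ± 30.5 after dexamethasone and 326.9 ± 20.1 after mock treatment, a log2 change of -0.54 ± 0.14 (adjusted p = 0.0311). With only the groups compared neither was called (adjusted p = 0.0509 and 0.0753). Leaving out CRL1 line 1, 2 or 3 likewise ended the call of hox33 (adjusted p between 0.101 and 0.239), and leaving out line 3 that of hox10 (0.0808). When the control response was subtracted none of the 28 was called at 4 h or 8 h, although 2 were higher at 4 h and 4 were higher and 2 lower at 8 h at an unadjusted p under 0.05, which 2.48% of all probe sets had at 4 h and 9.74% at 8 h. For the 6 genes called above the adjusted p of that difference at 8 h was 0.0758 for Roc4, 0.31 for hox17 and 0.284 for hox10 (limma). For hox33, hox15 and hox28 it was 0.398, 0.424 and 0.682. These differences come from the fit without a block, and blocked values are not given for them. Blocked by line, 495 of all probe sets were called higher and 222 lower for that difference at 8 h.

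**Figure D3:**
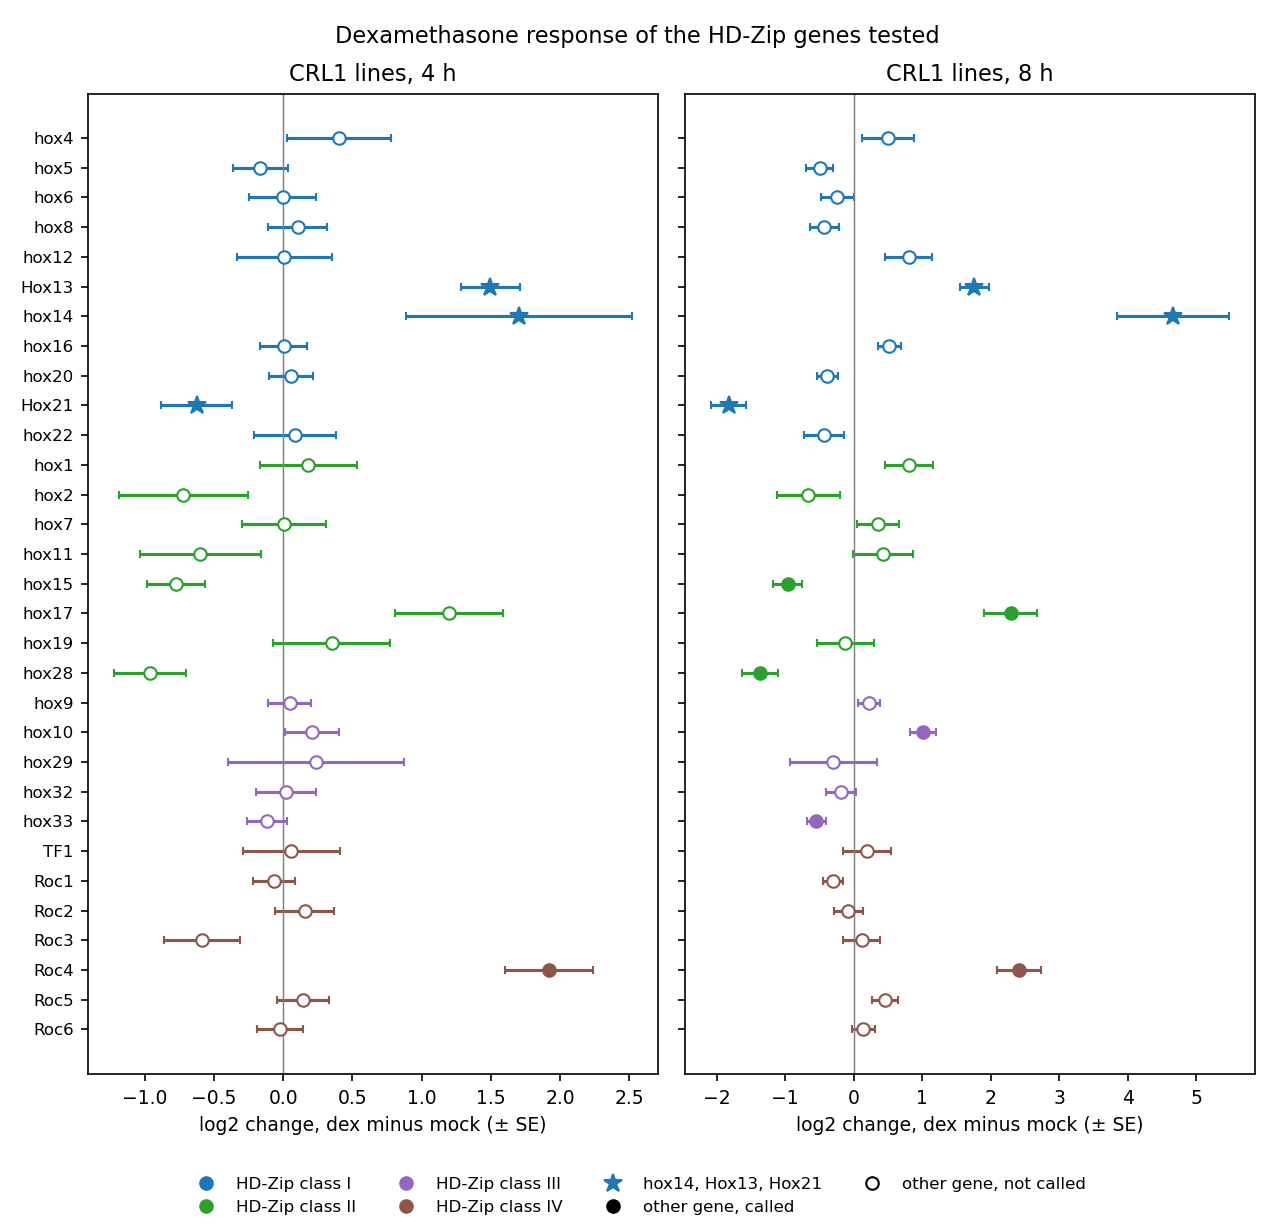
Log2 change (dexamethasone minus mock, ± SE of the limma fit) in the CRL1 lines at 4 h and 8 h for the 31 HD-Zip genes tested, coloured by class, with 1 probe set per gene; stars mark hox14, Hox13 and Hox21, which carry no test mark, and filled circles mark other genes called by limma. The 3 starred genes reach 4.66, 1.76 and -1.83 at 8 h, while the other 8 class I genes lie between -0.49 and 0.8.

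The named genes whose signals ran most like each of the 3 over the 20 arrays came from a search of 2821 probe sets with 1 named gene. The measure was Pearson's r of log2 signals, a description that rests largely on the CRL1 line arrays after dexamethasone, which share lines and treatment. Nearest to Hox13 were SCL7, a GRAS-domain gene (r = 0.95), the protein phosphatase gene PP2C40 (0.93) and the tryptophan decarboxylase gene TDC2 (0.93). They were followed by CBL4, a calcium sensor (0.92), and Roc4 (0.92). All 5 had a 4 h change that was most of the 8 h change or more: SCL7 stood at 0.97 ± 0.18 at 4 h and 0.94 ± 0.18 at 8 h, and TDC2 at 1.49 ± 0.29 and 2.05 ± 0.29. Over the 12 CRL1 line arrays alone r was 0.93 to 0.98 for the 5, and over the 8 control line arrays it was -0.41 to 0.74.

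Nearest to hox14 were genes that rose late. They were ADL1, a calpain-type protease gene (r = 0.94), the acetyl-CoA carboxylase gene ACC2 (0.94), RFC1 of the replication clamp loader (0.93), the glycosyltransferase gene GT43G (0.92) and MCM5 of the replicative helicase (0.92). RFC1 stood at 0.5 ± 0.14 on the log2 scale at 4 h and at 1.37 ± 0.14 at 8 h, and MCM5 at 0.3 ± 0.27 and 1.49 ± 0.27. Over the 12 CRL1 line arrays r was 0.95 to 0.97 for these 5, and over the 8 control line arrays 0.26 to 0.89.

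Nearest to Hox21 were genes that were lower at 8 h. They were the alpha-expansin gene EXPA6 (r = 0.96), the auxin response repressor gene IAA30 (0.95), RK3 (also SAPK5), a kinase gene of the SnRK2 family (0.94), the kinase gene NEK2 (0.93) and RTFL3 (0.93). The log2 changes of EXPA6 were -0.56 ± 0.22 at 4 h and -2.03 ± 0.22 at 8 h, beside -0.63 and -1.83 for Hox21, and RTFL3 stood at -0.21 ± 0.18 and -1.41 ± 0.18. Over the 12 CRL1 line arrays r was 0.93 to 0.97 for these 5, and over the 8 control line arrays -0.02 to 0.73.

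**Figure D4:**
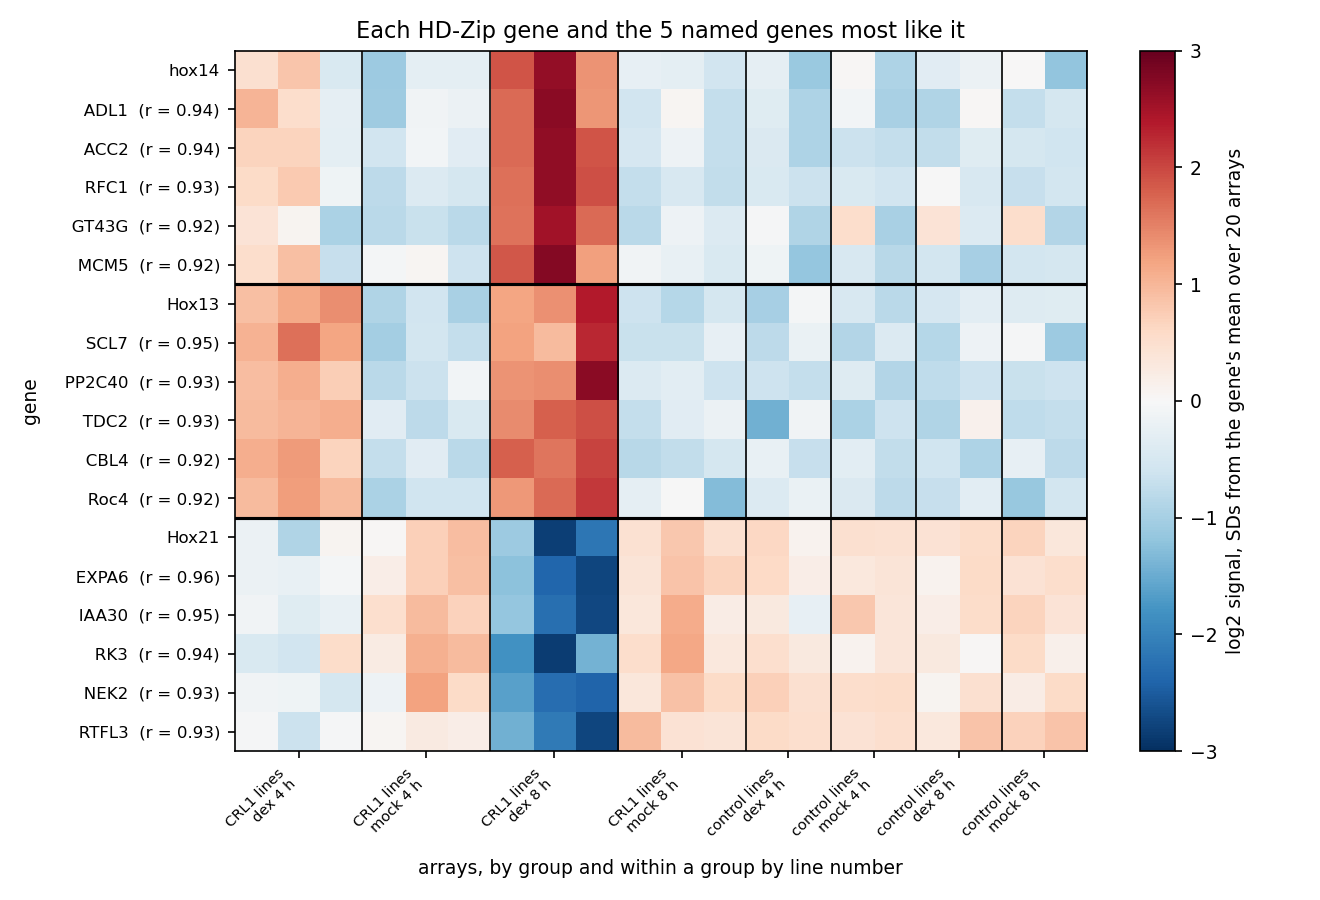
Log2 signal of each HD-Zip gene and of the 5 named genes most like it on the 20 arrays, in SDs from the gene's own mean over the arrays, with groups separated by vertical lines and Pearson's r over 20 arrays beside each name. The block of Hox13 is red in all 6 CRL1 line arrays after dexamethasone, that of hox14 mainly in the 3 at 8 h, and that of Hox21 is blue mainly in the 3 at 8 h.

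Neighbouring genes were looked at in the gene order of the RefSeq assembly ASM3414082v1, taking the 5 nearest tested genes on each side. Of the 10 neighbours of Hox13, 1 rose at 8 h and none fell, against a background of 3.47% and 2.91%. That gene, LOC4331887, lies 2 tested genes from Hox13 and rose by 3.28 ± 0.6 at 4 h (adjusted p = 0.0199, limma) and by 4.5 ± 0.6 at 8 h (adjusted p = 0.000261). It was chosen for mention after its values were seen. Of the 10 neighbours of hox14, 1 rose, LOC4343722, by 1.72 ± 0.18 at 8 h (adjusted p = 3.34e-05), and of those of Hox21 none rose or fell. The other neighbours had no call at 8 h, and their median log2 changes including the risers were 0.11 for Hox13, -0.02 for hox14 and -0.05 for Hox21.

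Markers of the tissues that a stem base holds were summed in the same groups. The matched vascular markers apart from SUT1, and all the epidermal ones, are HD-Zip genes of classes III and IV. Those lists are thus not separate from the HD-Zip results above. The background for marker calls in the CRL1 lines was 0.414% higher and 0.0213% lower at 4 h. At 8 h it was 3.47% higher and 2.91% lower. The summed signal of 4 matched shoot meristem markers of 5 listed was 706.1 to 1056 after dexamethasone in the CRL1 lines at 8 h and 1133 to 1345 after mock treatment, with no marker called. At 4 h these sums were 1195 to 1414 after dexamethasone and 1246 to 1306 after mock treatment. The 6 matched root markers of 10 summed to 769.8 to 917.2 after dexamethasone at 4 h and 342 to 535.6 after mock treatment, with the quiescent centre gene QHB called higher. At 8 h they summed to 579.9 to 600.7 after dexamethasone and 325.7 to 625.2 after mock treatment, with QHB higher and SHR1 lower. For 5 matched vascular markers of 7 the sums at 8 h were 1721 to 2589 after dexamethasone and 1477 to 1606 after mock treatment, with hox10 higher and hox33 lower. For 8 matched epidermal markers of 9 they were 1681 to 2285 and 1527 to 1808, with Roc4 higher, and for 4 matched leaf markers of 16 they were 10953 to 11211 and 9654 to 12312, with none called. In the control lines at 8 h the vascular sums were 1554 to 2486 after dexamethasone and 1577 to 1895 after mock treatment. The root sums there were 399.8 to 520.9 after dexamethasone and 526.1 to 706.4 after mock treatment at 8 h, and at 4 h 565.7 to 737.4 after dexamethasone and 665.9 to 713.6 after mock treatment. The shoot meristem sums were 1102 to 1841 after dexamethasone and 1581 to 1616 after mock treatment at 8 h, and the epidermal sums 1437 to 1597 and 1418 to 1469. The part of these tissue markers in the changes of hox14, Hox13 and Hox21 was not tested.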

How the data were processed

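RNA from stem bases was measured on 20 Affymetrix rice arrays. The authors deposited linear intensity values, 1 MAS5 signal per probe set. MAS5 and Affymetrix Expression Console are named in the submitters' processing notes, and their versions are not given in the sources used here. Their 2% trimmed mean was the same on every array, and no 2 arrays were identical. Of 57381 probe sets, 123 control probe sets were left out. Of the others 22436 had 1 listed gene, 95 several and 34727 none, with names updated through RefSeq (ASM3414082v1). No genome build is given for the arrays, so coordinates are left out.

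Tests used limma 3.58.1 in R 4.3.3 on log2(signal + 1.7), the offset being the 20th percentile of all signals. To be tested, a probe set had to exceed the array median on 3 or more arrays, as 32836 did. The fit had 8 group means over all 20 arrays, 12 residual degrees of freedom, a trended variance and Benjamini-Hochberg adjustment over all probe sets at 0.05. Mock-treated kinds of line were compared with line as a random block (correlation 0.228). The fit was also run on simulated arrays with known changes and no line effect, so its error rates under line effects were not checked. The labels pair arrays of 1 line: deviations from group means correlated at a median of 0.11 within CRL1 lines (-0.05 to 0.22) and of -0.06 between them (-0.2 to 0.12). For changes of HD-Zip genes in the CRL1 lines, blocked values stand beside results whose call they change. Calls of neighbours, of tissue markers and of the other HD-Zip genes' difference from the control lines are unblocked only.

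HD-Zip class lists and tissue markers were matched by symbol or synonym, 1 probe set per gene (the highest mean). Named genes were every class I gene tested, other HD-Zip genes called in a contrast and the tissue markers. To these came the 5 named genes with the highest r for each of the 3. Of the listed class I genes, hox24 did not pass the filter, and hox23 and hox25 had no probe set. The genes and lists were chosen with earlier results of these data known. Alternatives were no offset (signals of 0 set to 0.1), an offset at the median (11.8), omission of the filter, the filter set at the 75th percentile, quantile normalization, a fit of the compared groups alone, array weights, lines as a block, and omission of each line. Other steps ran in Python 3.11.15 (numpy 2.4.6, pandas 2.3.3, matplotlib 3.10.9).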

Additional observations from a re-analysis of the deposited data

How the results depend on the processing

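Of the alternatives, the choice of offset and filter, quantile normalization, array weights, a fit of the compared groups alone and blocking by line left the direction of every dexamethasone response of hox14, Hox13 and Hox21 in the CRL1 lines and their side of the threshold where tested. At 4 h the adjusted p (limma) ranged over these from 0.303 to 1.0 for hox14 and from 0.21 to 0.769 for Hox21. At 8 h the log2 changes ranged from 3.73 to 4.92 for hox14, 1.71 to 1.77 for Hox13 and -1.85 to -1.61 for Hox21. Leaving out each line gave 0.99 to 2.71 and 4.06 to 5.07 for hox14 at 4 h and 8 h, 1.34 to 1.59 and 1.54 to 1.95 for Hox13, and -0.86 to -0.37 and -2.2 to -1.47 for Hox21. The paired analysis with line as a replicate block changed no call of the 3 genes.

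Signs changed only where values were near 0 or rested on 1 control line, and the cause was not tested. Between the kinds of mock-treated line hox14 was -0.025 with an offset at the median, and between times -0.010 with quantile normalization. Leaving out each line in turn, the ranges that crossed 0 were, for hox14, -0.70 to 2.01 in the control lines at 8 h, -0.98 to 1.19 between kinds of mock-treated line and -0.27 to 0.29 between times. For Hox13 they were -0.40 to 0.56 in the control lines at 4 h and -0.084 to 0.034 at 8 h. For Hox21 they were -0.25 to 0.11 and -0.16 to 0.14 in the control lines at 4 h and 8 h, -0.0045 to 0.18 between kinds of line and -0.049 to 0.10 between times. The difference from the control lines ranged from 2.65 to 5.36 for hox14 at 8 h and from 0.93 to 1.89 for Hox13 at 4 h.

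The counts of other HD-Zip genes were 0 to 1 higher at 4 h and, at 8 h, 2 to 5 higher and 0 to 3 lower when lines were left out. With line as a replicate block they were 1 lower at 4 h and 6 higher at 8 h, and with array weights 1 lower at 4 h. Averaging a gene's probe sets gave 2 higher and 3 lower at 8 h. Dim signals limit hox14 in all mock arrays, and 3 and 2 lines per group limit the precision.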
